A study of Mus musculus with 4 samples.

Results

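Tumour Ly6c2-positive classical monocytes are 82 cells of the CD45-sorted B16-F10 tumours, 39 in the KO library and 43 in the WT library, out of 8675 kept tumour cells and 26816 barcodes in the 4 libraries of the study. They were chosen by transcript counts alone. A cell was kept with at least 500 unique molecular identifiers (UMIs), at least 200 genes and at most 10% mitochondrial UMIs. It then needed at least 1 UMI of Csf1r, at least 3 of Lyz2 and none of Cd3d, Cd3e, Cd3g, Flt3 or Csf3r, which leaves mononuclear phagocytes. Of these, the members held no UMI of Arg1, Cxcl9, Ccl8, Vcam1, Ace or Adgre4 and at least 2 UMIs of Ly6c2. The KO animals were Ndufa4-deficient male C57BL/6 mice (Ndufa4KO), and the WT animals were wild-type males of the same background. All were 8 weeks old and were implanted with subcutaneous B16-F10 melanoma, a transplantable line of C57BL/6 origin, and organs were taken on day 18. Cells of 3 mice per genotype (up to 4 in the protocol) were pooled into 1 library per organ, and spleen cells were sorted for CD45 and CD11b. Neither the allele nor the cells in which Ndufa4 was lost is given in the sources used here. With 1 library per genotype no difference has a replicate check and no test between genotypes is possible, so intervals below cover counting error only.

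Classical monocytes are made in the bone marrow, leave it through the chemokine receptor Ccr2 and enter inflamed tissue and tumours, where they lose Ly6C and become macrophages or antigen-presenting cells. Interferon gamma, from T cells and NK cells, acts on them through factors such as Irf1 and turns on guanylate-binding proteins and antigen presentation genes. Type I interferon acts on an overlapping set of antiviral genes. Ndufa4 encodes a small subunit of cytochrome c oxidase, the respiratory complex IV.

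The label was checked against genes that the rule did not use. Ccr2 was present in 37 of 39 KO and in all 43 WT cells, at 1442 CPM (the gene's UMIs summed over the members of a library and scaled to a total of 1e+06 UMIs) in KO and 1205 CPM in WT. All 14 classical monocyte markers were detected in both libraries and summed to 8150 CPM in KO and 7762 CPM in WT. Plac8, a classical monocyte gene, was seen in 39 of 39 KO and 42 of 43 WT cells. Ly6c1, a near-identical copy of Ly6c2, was nearly absent, with 1.83 CPM in KO and 1.70 CPM in WT, 1 cell each, and how reads common to both were assigned is uncertain. Non-classical monocyte markers summed to 343 CPM in KO and 206 CPM in WT. Macrophage markers stood at 6563 CPM in KO and 3878 CPM in WT, in 38 KO and all 43 WT cells. Those of monocyte-derived dendritic cells stood at 10743 CPM in KO and 7133 CPM in WT, most of it Cd74, at 10310 CPM in KO and 6850 CPM in WT. Spleen members of the same rule held 16521 CPM of the classical markers in KO and 16215 CPM in WT. Their macrophage markers stood at 557 CPM in KO and 598 CPM in WT. Tumour phagocytes with a UMI of Arg1 held 5713 CPM of the classical markers in KO and 5341 CPM in WT. Of the macrophage markers they held 8801 CPM in KO and 6845 CPM in WT. By these sums the tumour members stood between these groups. The label thus rests on Ccr2 and Plac8, and the same cells also carried macrophage and antigen presentation transcripts.

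Markers of cells outside the phagocyte lineage were low but not equal. Neutrophil markers summed to 112 CPM in KO and 128 CPM in WT, with Retnlg, Mmp9, Cxcr2, Ngp and Camp at 0 in both. Conventional dendritic cell markers reached 344 CPM in KO and 240 CPM in WT, with Xcr1, Zbtb46, Cadm1, Snx22 and Itgae at 0 in both. T cell markers, all 10 of 10 detected in KO and 4 of 10 in WT, held 47 UMIs (86.1 CPM) in 24 KO cells and 8 UMIs (13.6 CPM) in 4 WT cells. Trac, Trbc2, Cd8b1, Cd4, Cd247 and Bcl11b were at 0 in the WT cells. NK cell markers stood at 55.0 CPM in KO and 57.9 CPM in WT. Leaving out each cell with any T or NK marker UMI leaves 11 KO and 36 WT cells, and results for these are given beside the gene groups below. Median depth of the members was 13282 UMIs (1517 to 33827) in KO and 13507 UMIs (2829 to 25603) in WT, and the median mitochondrial share was 3.00% in KO and 2.93% in WT. A doublet score marked 2 KO and 0 WT members, and 6 barcodes were shared between the tumour libraries, none of them a member.

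The conditions on Arg1 and Cxcl9 took unequal parts of the Ly6c2 cells of each genotype. Among phagocytes with at least 2 Ly6c2 UMIs, 189 in KO and 133 in WT, a UMI of Cxcl9 was found in 55.6% [48.2, 62.8] of KO and 13.5% [8.22, 20.5] of WT cells (exact binomial 95% intervals). Cxcl9 encodes an interferon gamma induced chemokine that attracts Cxcr3-bearing T cells and NK cells. Arg1, the arginase of suppressive macrophages, was found in 15.9% of KO and 37.6% of WT cells. In T cells of the same libraries (at least 2 Cd3 UMIs and no Lyz2, 1356 in KO and 519 in WT, median 9737 UMIs in KO and 7853 in WT), which should lack both genes, the Cxcl9 share was 8.11% in KO and 1.54% in WT, and the Arg1 share 1.77% in KO and 3.66% in WT. The Ly6c2-positive phagocytes had median depths of 14301 UMIs in KO and 16262 UMIs in WT. After thinning each cell to 2000 UMIs, Cxcl9 was found in 41.4% of KO and 8.27% of WT cells, and Arg1 in 7.53% of KO and 25.6% of WT cells. The members are thus the Cxcl9-negative and Arg1-negative remainder, and genes that move with Cxcl9 or Arg1 are described below also in the 122 KO and 95 WT cells obtained when both conditions are lifted.

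**Figure D1:**
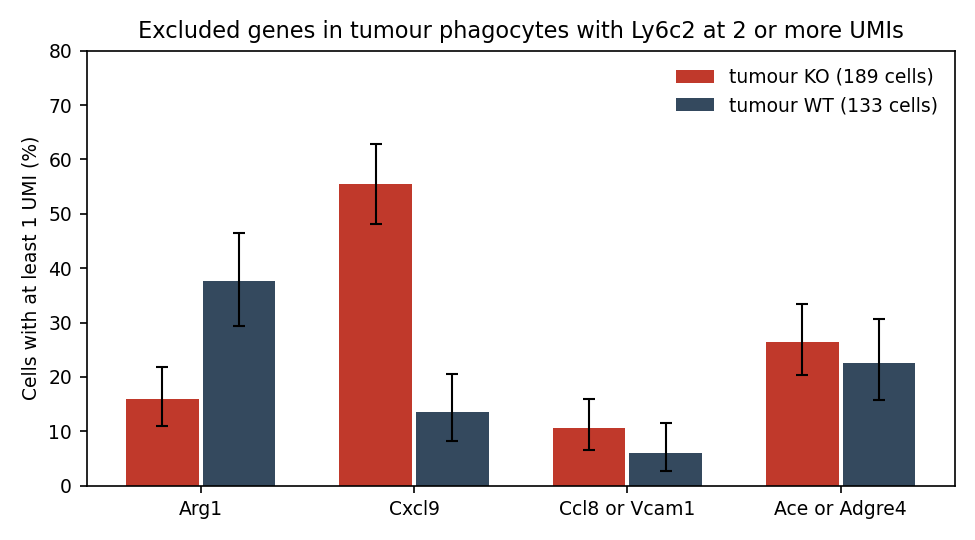
Percent of phagocytes with at least 2 Ly6c2 UMIs (y axis) that held a UMI of each gene the rule excludes (x axis), 189 KO and 133 WT cells, with exact binomial 95% intervals as bars. Cxcl9 was found in 55.6% of KO and 13.5% of WT cells, and Arg1 in 15.9% of KO and 37.6% of WT cells.

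The Ly6c2 threshold lay in a thin part of the KO distribution and a denser part of the WT one. Of the cells that met every other condition, 2 KO and 13 WT cells held 1 Ly6c2 UMI, just outside, and 2 KO and 9 WT cells held 2 UMIs, just inside. Cells with none numbered 12 in KO and 84 in WT. Members held a median of 7 Ly6c2 UMIs in KO and 5 in WT, with maxima of 108 in KO and 25 in WT. Its summed level was 953 CPM in KO and 557 CPM in WT. The condition on Csf3r, the receptor of granulocyte colony-stimulating factor, removed 52% of the KO and 43.2% of the WT cells that reached it. Lifting it gives 90 KO and 83 WT cells. The Cd3 conditions removed 31.2% of the KO and 10.5% of the WT cells that reached them. Lifting these gives 60 KO and 50 WT cells. The conditions on Ace and Adgre4, which were not lifted, removed 60.7% of the KO and 45.1% of the WT cells that reached them.

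Members made up 0.838% [0.596, 1.14] of kept KO tumour cells and 1.07% [0.775, 1.44] of kept WT tumour cells. The difference of -0.232 points [-0.663, 0.178] (Newcombe 95% interval) spans 0. As a share of mononuclear phagocytes, they were 12.2% of 319 KO cells and 6.98% of 616 WT cells, a difference of 5.25 points [1.35, 9.66]. All Ly6c2-positive phagocytes together made up 59.2% of KO and 21.6% of WT phagocytes, and 4.06% of KO and 3.31% of WT tumour cells. The last difference, 0.750 points [-0.0499, 1.54], spans 0. The KO library held 319 phagocytes among 4656 kept cells and the WT library 616 among 4019, and the share of phagocytes and the share of all cells differ in direction. With both the Arg1 and the Cxcl9 condition lifted, the difference in the share of all tumour cells is 0.257 points.

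Ndufa4 itself was nearly absent from the KO members. It had 1 UMI in 1 of 39 KO cells and 182 UMIs in 37 of 43 WT cells (1.83 CPM in KO, 310 CPM in WT), a log2 KO/WT ratio of -7.40 [-12.71, -4.91]. Ratios are given with exact conditional binomial 95% intervals. This is the pattern that the genotype labels give.

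Of 5486 genes with a mean of at least 20 CPM over both libraries, 744 (13.6%) were higher in KO by 1.5-fold or more and 605 (11.0%) lower by as much, and the median log2 ratio of all was 0.01. These shares are the background against which each gene group is read. Some genes sit in several lists, which are thus not independent. In the larger group with Csf3r allowed, 7.42% were higher and 6.22% lower, and with the Arg1 and Cxcl9 conditions lifted 8.02% were higher and 7.11% lower.

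More interferon gamma response genes were higher in KO monocytes than the background share. Among 31 tested genes of the type II interferon list, 17 passed the fold upwards in KO and 1 downwards. The list median on the log2 scale was 0.79, between 0.17 and 1.15 for the medians of the lower and upper interval bounds. Irf1, a transcription factor that interferon gamma induces, had 185 UMIs in KO (339 CPM) and 69 UMIs in WT (118 CPM), a log2 ratio of 1.53 [1.12, 1.95]. It was found in 36 of 39 KO cells and 18 of 43 WT cells, with a median of 3 UMIs and a maximum of 24 per KO cell and a median of 0 and a maximum of 20 per WT cell. The ranges per cell overlapped, but 92.3% of KO cells held the transcript, against 41.9% of WT cells. Gbp3, a guanylate-binding protein of cell-autonomous defence, stood at 174 CPM in 28 KO cells and 59.6 CPM in 15 WT cells (log2 1.55 [0.97, 2.15]). The list member that went the other way was Iigp1, an immunity-related GTPase, with 29 UMIs in 10 KO cells and 96 UMIs in 5 WT cells, 52 of them in a single cell. It turns upwards to 1.36 [1.10, 1.63] with the Arg1 and Cxcl9 conditions lifted, to 1.04 [0.68, 1.42] with the rule applied to thinned cells and to 0.44 [0.09, 0.80] with Csf3r allowed. Here and below, the rule for thinned cells was eased, so that any UMI of Lyz2 and of Ly6c2 was enough.

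The promoters of 3 type II list genes are shown, those with the highest lower bound of the ratio among genes with a window and a match, since they carry the letters that interferon-activated factors are known to bind. Each is the RefSeq window of 300 bases around the gene start on GRCm38.p6, plus strand, 5′ to 3′. Irf1 lies at chr11:53769764-53770063, Gbp3 at chr3:142559794-142560093 and Gbp5, another guanylate-binding protein with a log2 ratio of 1.31 [0.66, 1.99], at chr3:142496684-142496983. Capitals mark matches to the GAS letters TTCNNNGAA, the form known from interferon gamma response genes, or to the ISRE letters, GAAA and GAAA with NN between them, the form bound by Irf factors. Both strands were searched.
Irf1: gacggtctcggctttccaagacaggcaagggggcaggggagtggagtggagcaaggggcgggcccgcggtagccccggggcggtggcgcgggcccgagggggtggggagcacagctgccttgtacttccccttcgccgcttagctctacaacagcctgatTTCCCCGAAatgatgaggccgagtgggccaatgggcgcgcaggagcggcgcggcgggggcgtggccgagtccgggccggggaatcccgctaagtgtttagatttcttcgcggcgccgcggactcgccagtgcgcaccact
Gbp3: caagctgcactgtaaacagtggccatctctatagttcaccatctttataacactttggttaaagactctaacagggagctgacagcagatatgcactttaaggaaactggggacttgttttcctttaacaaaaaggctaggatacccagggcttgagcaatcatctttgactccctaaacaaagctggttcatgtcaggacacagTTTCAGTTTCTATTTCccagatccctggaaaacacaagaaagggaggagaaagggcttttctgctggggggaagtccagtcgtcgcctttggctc
Gbp5: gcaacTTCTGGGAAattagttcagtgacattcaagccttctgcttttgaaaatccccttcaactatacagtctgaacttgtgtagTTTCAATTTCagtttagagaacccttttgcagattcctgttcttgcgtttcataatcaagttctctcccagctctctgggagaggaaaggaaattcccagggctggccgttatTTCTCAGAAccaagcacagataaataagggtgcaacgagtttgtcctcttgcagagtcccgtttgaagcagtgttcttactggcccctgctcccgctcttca
Irf1 holds 1 GAS match and no ISRE match, Gbp3 holds 2 overlapping ISRE matches and no GAS match, and Gbp5 holds 2 GAS matches and 1 ISRE match.
Of the 31 tested type II genes 21 had a window, of which 8 (38.1%) held GAS letters and 11 (52.4%) ISRE letters, 4 of them both. Of the 63 tested type I genes 52 had a window, of which 6 (11.5%) held GAS letters and 26 (50.0%) ISRE letters. Over all 27025 windows the shares were 8.37% for GAS and 3.52% for ISRE, and over the 4411 windows of tested genes 6.53% and 4.33%. A match is a string of letters and not a measured binding site. Gbp4, Ly6a and Ly6i had no window in the table.

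Genes of the type I interferon list followed with a smaller median. Among 63 tested, 31 passed the fold upwards in KO and 2 downwards. The list median was 0.58, between 0.15 and 0.99 for the medians of the bounds. Irf7, the amplifier of the type I response, stood at 262 CPM in 31 KO cells and 135 CPM in 23 WT cells (log2 0.96 [0.55, 1.38]). Slfn4, a Schlafen family gene of myeloid cells, stood at 80.6 CPM in KO and 25.6 CPM in WT (1.66 [0.78, 2.61]). Ifi206, of the interferon-inducible p200 family, stood at 132 CPM in KO and 51.1 CPM in WT (1.37 [0.73, 2.03]). The 2 lower genes were Ifit1 and Ifit2, which bind foreign RNA. Ifit2 had 36 UMIs spread over 15 KO cells, at most 6 per cell, and 141 UMIs in 10 WT cells, at most 36 per cell, a log2 ratio of -1.86 [-2.44, -1.33]. Ifit1 gave 26 UMIs in 13 KO cells and 88 UMIs in 9 WT cells (-1.65 [-2.34, -1.01]). More KO than WT cells held these transcripts, so the higher WT sums came from more copies per positive cell. Without the top cell of each library the ratios are -1.71 [-2.35, -1.11] for Ifit2 and -1.59 [-2.39, -0.85] for Ifit1. With the Arg1 and Cxcl9 conditions lifted, the Ifit1 ratio is 0.04, and with the rule applied to thinned cells Ifit1 has 0.87 and Ifit2 1.23.

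Antigen presentation genes were higher in KO without exception among those past the fold. Of 20 class I genes 8 were higher and none lower (median 0.54), and of 9 class II genes 4 were higher and none lower (median 0.58). Tap1, Psmb8, Psmb9 and Nlrc5 of class I and Ciita of class II are also in the type II interferon list. Tap1 and Tap2, the peptide transporter, stood at 258 and 167 CPM in KO and at 133 and 83.5 CPM in WT, log2 ratios of 0.96 [0.55, 1.38] and 1.00 [0.48, 1.53]. Cd74, the class II invariant chain, stood at 10310 CPM in KO and 6850 CPM in WT (0.59 [0.53, 0.65]). H2-Eb1, a class II beta chain, stood at 3235 CPM in 32 KO cells and 1941 CPM in 26 WT cells (0.74 [0.63, 0.85]). H2-Q7, a non-classical class I gene, had 54 UMIs in KO and 16 in WT (1.86 [1.03, 2.76]), and reads of near-identical H2-Q copies could be assigned to it or away from it.

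T cell transcripts moved with these groups, and their part in them was not tested. In T cells of the same libraries Irf1 was found in 78.2% of KO and 58.6% of WT cells. In the 11 KO and 36 WT members with no T or NK marker UMI, the medians were 0.62 for the type II list and 0.62 for the type I list. There Irf1 stood at a log2 ratio of 1.33, Gbp3 at 0.59, Irf7 at 0.95 and Cd74 at 0.58, all still higher in KO. With the 2 doublet-marked KO cells left out, the type II median is 0.71 and the type I median 0.64.

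**Figure D2:**
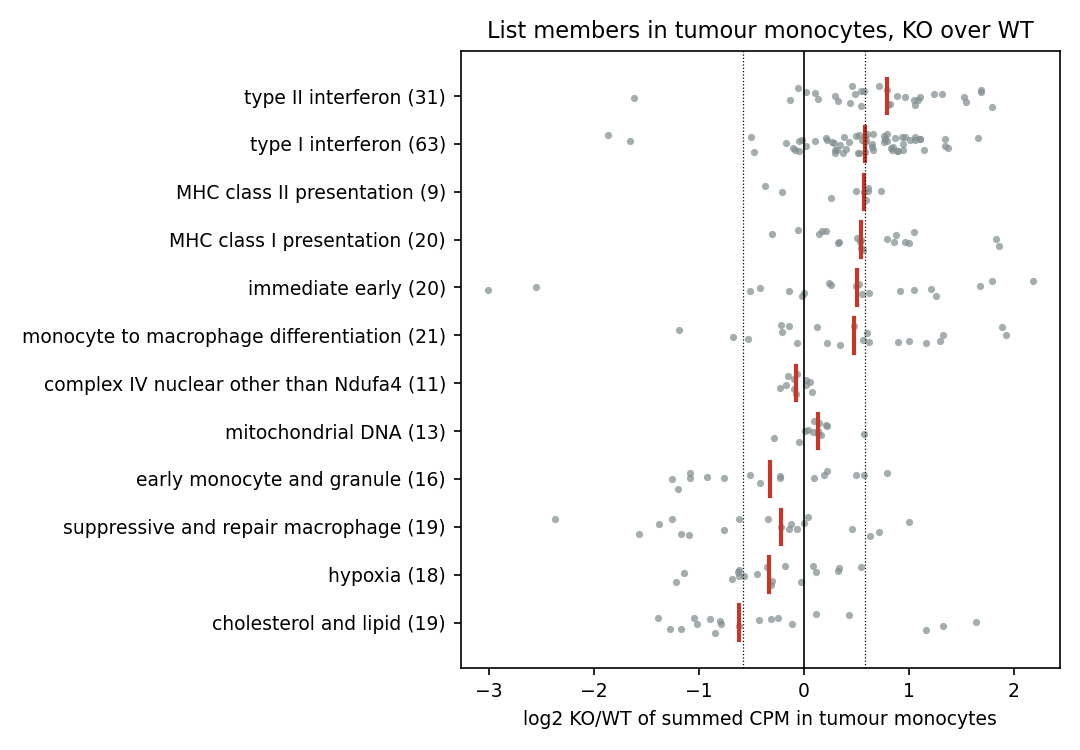
Log2 KO/WT ratio of every tested gene (points, x axis) in 12 gene lists (y axis, number tested in parentheses), in 39 KO and 43 WT members, with the list median as a bar. The type II interferon median is 0.79 and the type I median 0.58, while nuclear complex IV has -0.08 and mitochondrial DNA 0.13. Dotted lines mark 1.5-fold.

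The interferon difference was visible cell by cell. In cells thinned to 2000 UMIs (38 KO, with 1 shallower cell left out, and 43 WT), the summed type II list had 2 to 34 UMIs with a median of 12 in KO, and 0 to 36 with a median of 5 in WT. The highest members of both libraries reached a like level, and 4 KO and 5 WT cells lay above the WT 90th percentile. The members thus differed in the middle and lower part of the range. The rule removes cells with Cxcl9, an interferon gamma induced gene, found in 55.6% of KO and 13.5% of WT Ly6c2-positive phagocytes. Sums per cell were not computed with that condition lifted, so the top of the range is that of the members only. The unthinned medians were 82 in KO and 26 in WT. The type I list had a median of 32.5 (14 to 90) in KO and 27 (1 to 88) in WT. The class II list had a median of 48 (1 to 132) in KO and 15 (1 to 109) in WT. Across cells of a library, type II and type I sums had a Spearman rho of 0.31 in KO (38 cells) and 0.66 in WT (43 cells), and type II and class II sums 0.17 in KO and 0.54 in WT. These are descriptions over cells that share a library, and the type II and class II lists share Ciita.

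**Figure D3:**
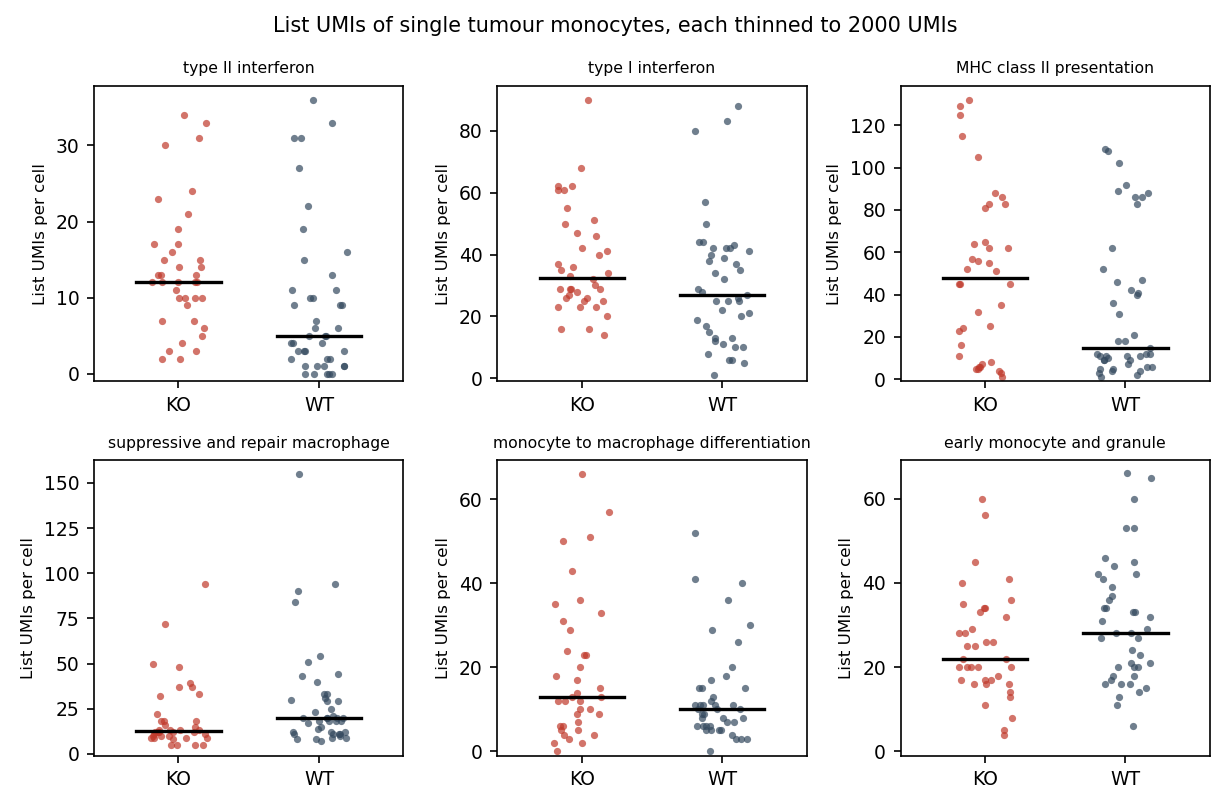
Summed UMIs of 6 gene lists per cell after thinning to 2000 UMIs (y axis), for 38 KO and 43 WT members (x axis), with a point per cell and the median as a bar. Type II interferon medians are 12 in KO and 5 in WT, with overlapping ranges.

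Nucleic acid sensors detect foreign or displaced DNA and RNA and can induce type I interferon. The nucleic acid sensing list holds such sensors beside signalling factors, nucleases and the interferon receptors. Its genes differed little one by one. Among 15 tested, 2 passed the fold upwards and none downwards, and the median was 0.17. The share of higher genes was near the background of 13.6%. The 2 were Samhd1, a deoxynucleotide hydrolase, at 1186 CPM in KO and 712 CPM in WT (0.74 [0.56, 0.92]), and Zbp1, a sensor of left-handed nucleic acids, at 367 CPM in KO and 232 CPM in WT (0.66 [0.34, 0.99]). The summed level of the list per thinned cell had a median of 6 in KO and 4 in WT. Of the KO cells 16 (42.1%) lay above the WT 90th percentile, against 5 WT cells (11.6%). This sum includes Samhd1, with 647 UMIs in KO and 418 in WT, and Zbp1, with 200 in KO and 136 in WT. It was not computed without these 2 genes. The list shares Zbp1, Ddx58 and Ifih1 with the type I interferon list.

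Immediate early genes, which respond within minutes to receptor signals or handling, gave 8 genes at least 1.5-fold higher in KO out of 20 tested, and 2 lower, both heat shock genes. The list median was 0.51. Fos, a subunit of the AP-1 factor, had 994 UMIs in 37 KO cells (1822 CPM) and 309 UMIs in 33 WT cells (527 CPM), a log2 ratio of 1.79 [1.61, 1.98], with a median of 17 per KO cell and 3 per WT cell. Fosb stood at 301 CPM in KO and 66.5 CPM in WT (2.18 [1.67, 2.72]), and Egr1, an early growth response factor, at 273 CPM in KO and 85.2 CPM in WT (1.68 [1.21, 2.17]). Hspa1a and Hspa1b, near-identical copies of the inducible heat shock protein between which reads could be split, went the other way. Hspa1b had 36 UMIs in 5 KO cells and 312 UMIs in 10 WT cells, 107 of them in 1 cell (-3.01 [-3.55, -2.51]). In spleen members of the same rule Hspa1a had -3.46 [-6.60, -1.42] and Hspa1b -2.64 [-5.05, -0.85], also lower in KO but resting on few cells. There Hspa1a had 2 UMIs in 2 KO cells and 20 UMIs in 3 WT cells. Hspa1b had 3 UMIs in 2 KO cells and 17 UMIs in 2 WT cells. In thinned cells the immediate early sum had a median of 22 (6 to 50) in KO and 13 (3 to 59) in WT. Fos was also found in 49.3% of KO and 21% of WT T cells. Among members with no T or NK marker UMI its ratio is 2.47.

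Monocyte transcription factors were mixed. Of 30 tested, 8 were higher and 3 lower (median 0.36). The list shares Fos, Jun, Egr1, Atf3 and Nr4a1 with the immediate early list. Klf4, needed for monocyte formation, stood at 158 CPM in KO and 56.2 CPM in WT (1.49 [0.89, 2.11]). Spi1, which encodes the lineage factor PU.1, stood at 541 CPM in KO and 518 CPM in WT (0.06 [-0.17, 0.30]), an interval that spans 0. Irf8, which directs monocyte and dendritic fates, had 0.44 [0.08, 0.81] and Cebpb -0.38 [-0.53, -0.22], neither past the fold. Bhlhe40, a repressor active in inflammatory macrophages, stood at 82.5 CPM in KO and 237 CPM in WT (-1.52 [-2.04, -1.03]).

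Early monocyte genes past the fold were mostly lower in KO, and macrophage differentiation genes past it mostly higher. Of 16 early monocyte and granule genes, 1 was higher and 6 lower (median -0.33). Vcan, a matrix proteoglycan of monocytes, stood at 359 CPM in KO and 762 CPM in WT (-1.08 [-1.33, -0.84]), and F10, a coagulation factor, at 233 CPM in KO and 535 CPM in WT (-1.20 [-1.51, -0.90]). The higher gene was Plac8, at 3335 CPM in KO and 1927 CPM in WT (0.79 [0.68, 0.90]). Of 21 monocyte to macrophage genes, 9 were higher and 2 lower (median 0.47). Apoe, a lipid carrier of macrophages, stood at 2324 CPM in KO and 1039 CPM in WT (1.16 [1.02, 1.30]). C1qc, a complement subunit, stood at 623 CPM in 14 KO cells and 254 CPM in 12 WT cells (1.30 [1.01, 1.58]). Ms4a7 stood at 220 CPM in 12 KO cells and 57.9 CPM in 13 WT cells (1.92 [1.36, 2.52]). Similar numbers of KO and WT cells held C1qc and Ms4a7, so the difference lay in the amount per cell. A single KO cell held 140 of 340 C1qc UMIs, and a single WT cell 45 of 149. Without the top cell of each library C1qc has a ratio of 1.08 and Ms4a7 1.78. The other C1q genes, C1qa and C1qb, then have 0.68 and 0.42, and C1qb is not past the fold. This list is not stable to the rule. Its median is -0.26 with the Arg1 and Cxcl9 conditions lifted and -0.17 with Csf3r allowed, and Ms4a7 then has ratios of -0.26 and -0.20. Early monocyte and macrophage sums ran against each other across thinned cells, with a rho of -0.36 in KO and -0.25 in WT.

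Of 19 tested genes of suppressive and matrix-forming macrophages, 8 were lower in KO by the fold and 3 higher (median -0.22), and the summed level was 10030 CPM in KO and 14882 CPM in WT. Spp1, osteopontin, had 305 UMIs in 8 KO cells (559 CPM) and 1701 UMIs in 22 WT cells (2898 CPM), a log2 ratio of -2.37 [-2.56, -2.20]. A single WT cell held 1056 of its UMIs and a single KO cell 195, and without these cells the ratio is -2.45. A UMI of Spp1 was found in 20.5% of KO and 51.2% of WT members, and in 10.6% of KO and 17.3% of WT T cells, and the part of free RNA in these sums was not tested. Thbs1, thrombospondin 1, stood at 772 CPM in KO and 1847 CPM in WT (-1.26 [-1.43, -1.10]), and Fabp5, a fatty acid carrier, at 585 CPM in KO and 1319 CPM in WT (-1.18 [-1.37, -0.99]). Cd274, which encodes the checkpoint ligand PD-L1, was in the same list and went the other way, at 101 CPM in KO and 61.3 CPM in WT (0.72 [0.08, 1.36]). Without the top cell of each library it has 0.54 [-0.18, 1.27] and is no longer past the fold. With the Arg1 and Cxcl9 conditions lifted the list median is -1.02.

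No tested hypoxia or glycolysis gene passed the fold upwards in KO. Of 18 hypoxia genes, none was higher and 6 were lower (median -0.33, with -0.91 and 0.16 for the medians of the bounds). Ero1l, an endoplasmic reticulum oxidase, stood at 145 CPM in KO and 319 CPM in WT (-1.14 [-1.54, -0.75]). Ndrg1 had -0.68 [-1.19, -0.19] and Slc2a1, the glucose transporter, -0.63 [-1.06, -0.21]. Without the cell that held most of a gene's UMIs in each library, Ero1l has -0.38 [-0.85, 0.09], Ndrg1 -0.50 [-1.12, 0.10] and Slc2a1 -0.47, so that none of these stays past the fold. Of 15 glycolysis genes 2 were lower and none higher (median -0.06), and Gapdh stood at 2516 CPM in KO and 2854 CPM in WT. In thinned cells the hypoxia sum had a median of 4.5 in KO and 6 in WT, and it ran with the suppressive sum across cells (rho 0.60 in KO and 0.54 in WT). The hypoxia and suppressive lists share Vegfa. After thinning of the members the hypoxia median is 0.01 and the Slc2a1 ratio 0.34.

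Chemokine genes split in both directions, with 5 of 13 higher and 4 lower in KO (median 0.14). Ccl2, the ligand of Ccr2, did not differ beyond its interval, at 827 CPM in KO and 915 CPM in WT (-0.15 [-0.33, 0.04]), with 25 cells each. Ccl3 and Ccl4, inflammatory chemokines, stood at 128 and 264 CPM in KO and at 29.0 and 57.9 CPM in WT (2.15 [1.37, 3.00] and 2.19 [1.64, 2.77]). Both are also T cell genes, found in 38.3% and 56.0% of KO T cells and in 29.5% and 35.8% of WT T cells, and the part of T cell RNA in these sums was not tested. Ccl12 stood at 277 CPM in 9 KO cells and 54.5 CPM in 10 WT cells (2.34 [1.79, 2.94]), with 93 of 151 KO UMIs in 1 cell and a ratio of 1.34 without the top cell of each library. Ccl9, a myeloid chemokine, stood at 293 CPM in 30 KO cells and 893 CPM in 39 WT cells (-1.61 [-1.87, -1.35]), and its median was 2 UMIs per KO cell and 8 per WT cell. Ccl3, Ccl4 and Ccl12 were not higher in the 122 KO and 95 WT cells with the Arg1 and Cxcl9 conditions lifted, where their ratios are -1.88, -0.21 and -0.56.

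Inflammatory mediators were also mixed, with 4 of 12 higher and 3 lower (median 0.19). Il1b, the fever cytokine, stood at 786 CPM in 26 KO cells and 463 CPM in 21 WT cells (0.76 [0.54, 0.99]), and its natural antagonist Il1rn at 119 CPM in KO and 244 CPM in WT (-1.03 [-1.48, -0.60]). Cd80, a costimulatory ligand of CD28, gave 1 UMI in 1 KO cell and 28 UMIs in 14 WT cells (-4.70 [-10.06, -2.11]). Cxcl3, a neutrophil-attracting chemokine, gave 2 UMIs in 1 KO cell and 36 UMIs in 9 WT cells (-4.06 [-7.16, -2.11]). Nos2, inducible nitric oxide synthase, gave only 10 UMIs in KO and 9 in WT, each in 2 cells. Among receptors, Cx3cr1, which rises as monocytes mature, stood at 95.3 CPM in KO and 52.8 CPM in WT (0.85 [0.18, 1.54]). Its direction turns to -0.81 [-1.21, -0.41] with the Arg1 and Cxcl9 conditions lifted, and to -0.30 with the rule applied to thinned cells. Tlr2 stood at 130 CPM in KO and 54.5 CPM in WT (1.25 [0.63, 1.90]) and Cd14, the lipopolysaccharide co-receptor, at 486 CPM in KO and 881 CPM in WT (-0.86 [-1.08, -0.64], but 0.44 among members with no T or NK marker UMI).

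Of 19 tested genes of the cholesterol and lipid list, 3 were higher and 10 lower (median -0.61). The roles named next are background and were grouped after the values were seen. The lower genes held 9 of cholesterol synthesis and its control, among them Sqle, Msmo1, Hmgcs1, Srebf2, Sc5d, Idi1 and Fdft1, beside Fabp5. Sqle, squalene epoxidase, had a log2 ratio of -1.39 and Hmgcs1, an early enzyme of the pathway, -1.02. The 3 higher genes were those of cholesterol export, Apoe, Abcg1 and Abca1, and Abca1 stood at 106 CPM in 14 KO cells and 34.1 CPM in 6 WT cells (1.64 [0.89, 2.45]). Abca1 has a ratio of -0.40 with the Arg1 and Cxcl9 conditions lifted.

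Hardly any other respiratory chain gene passed the fold. None of 11 nuclear complex IV genes other than Ndufa4 was past the fold (median -0.08), and Cox4i1 stood at 863 CPM in KO and 905 CPM in WT (-0.07 [-0.25, 0.11]). Of 36 complex I genes 1 was higher and 1 lower (median -0.01), and complexes II and III, complex V and the 13 mitochondrial DNA genes had none past the fold, with medians of 0.01, -0.07 and 0.13. The mitochondrially encoded complex IV subunit mt-Co1 stood at 6771 CPM in KO and 6375 CPM in WT. Redox genes were led by Gclm, the modifier of glutathione synthesis, with 75 UMIs in 13 KO cells and 7 in 5 WT cells (3.53 [2.41, 4.89]). A single KO cell held 55 of these, and the ratio without the top cells is 2.44 [0.86, 4.45]. Srxn1 had 1.69 with all cells and 0.09 [-1.52, 1.70] without its own top cell in each library.

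Of the genes furthest apart by the interval bound nearest to 0, several of those not yet described had few UMIs or few cells. Plaat3, a phospholipase, stood at 93.5 CPM in 18 KO cells and 11.9 CPM in 6 WT cells (2.97 [1.82, 4.36]), and it was found in 81.0% of KO and 67.2% of WT T cells. Clec10a, a lectin of dendritic cells, rested on 1 KO cell with 43 of 60 UMIs. Fkbp5, a glucocorticoid-responsive chaperone, gave 12 UMIs in 9 KO cells and 52 UMIs in 21 WT cells (-2.01 [-3.05, -1.09]). Chil1, a chitinase-like protein, gave 11 UMIs in 6 KO cells and 54 UMIs in 17 WT cells (-2.19 [-3.28, -1.24]). Both were also lower in KO spleen members of the same rule, Fkbp5 at -1.49 [-2.27, -0.75] and Chil1 at -0.84 [-1.42, -0.27]. AA467197 stood at 251 CPM in KO and 728 CPM in WT, with 253 of 427 WT UMIs in 1 cell. With all spleen members it went the other way, with 53 UMIs in 5 KO cells and 0 UMIs in WT. Without the 5 granule-rich KO cells it had 0 UMIs in both genotypes, so no spleen difference remained.

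**Figure D4:**
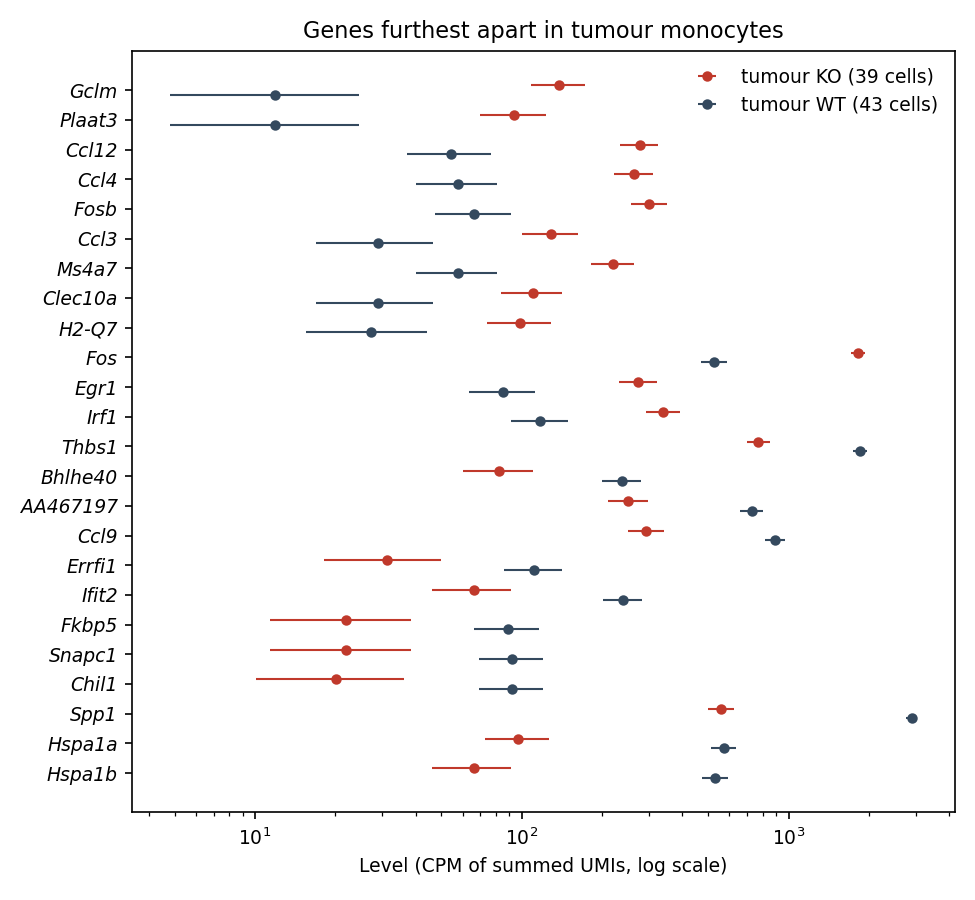
Summed level in CPM (x axis, log scale) of the 24 genes furthest apart in either direction (y axis), in KO and WT members, with exact Poisson 95% intervals as bars. Gclm stands at 137 CPM in KO and 11.9 CPM in WT, and Hspa1b at 66.0 CPM in KO and 532 CPM in WT.

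The interferon difference was also present in the neighbouring phagocytes of the tumour, and larger there. In 49 KO and 250 WT Arg1-positive phagocytes the type II median is 2.32, and in 152 KO and 92 WT Cxcl9-positive ones 1.42, beside 0.79 in the monocytes. The KO summed levels of the type II list were 8062 CPM in Arg1-positive cells, 11144 CPM in Cxcl9-positive cells and 7188 CPM in monocytes, against 2047, 4722 and 4328 CPM in the same WT groups. WT monocytes stood above WT Arg1-positive cells. Irf1 had log2 ratios of 2.53 [2.21, 2.85] in Arg1-positive and 2.10 [1.82, 2.39] in Cxcl9-positive cells. The Arg1-positive and Cxcl9-positive groups share 23 KO and 22 WT cells, and all 3 groups come from the same pair of libraries. The groups were cut on measured genes, so the order of their ratios is a description.

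Suppressive genes gave medians of -0.99 in Arg1-positive and -1.17 in Cxcl9-positive cells, and Spp1 stood at 444 CPM in KO and 6568 CPM in WT Arg1-positive cells. Apoe went in opposite directions, with 0.71 [0.65, 0.77] in Arg1-positive, -1.22 [-1.27, -1.18] in Cxcl9-positive cells and 1.16 in monocytes. Plac8 was higher in KO in all 3, with 2.05 in Arg1-positive and 2.16 in Cxcl9-positive cells. Of all genes in the Arg1-positive cells 9.82% passed the fold upwards in KO and 7.25% downwards, and in the Cxcl9-positive cells 11.6% were higher and 8.64% lower.

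Spleen monocytes chosen by the same rule, 31 in KO and 30 in WT, did not show the interferon difference. In the spleen the conditions on Ace and Adgre4 removed 89.8% of the KO and 93.9% of the WT cells that reached them. The spleen members are thus a small remainder, and spleen cells with a UMI of either gene were not compared. Of the 31 KO spleen members 5 held 2127 to 4861 UMIs of the granule genes Ngp, S100a8, Ltf and Camp. The other KO spleen members held at most 37, and values are given with and without these 5 granule-rich cells. The type II median was -0.62 with them and -0.33 without, the type I median -0.04 and 0.17, and the class II median -0.80 and -0.19. The summed type II level was 1429 CPM in KO and 1850 CPM in WT spleen monocytes, below both tumour groups. Irf1 stood at 101 CPM in KO and 78.8 CPM in WT (0.35 [-0.40, 1.12]), an interval that spans 0. Ndufa4 had 0 UMIs in KO and 149 UMIs in WT spleen monocytes. Against a floor of 3 counts over the group, its log2 ratio is -5.77 or lower. Spp1 gave 2 UMIs in KO and 0 in WT spleen monocytes. Of 6156 spleen genes 12.6% passed the fold upwards in KO and 18.0% downwards (13.7% and 14.4% without the granule-rich cells), and the difference between organs was not tested.

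**Figure D5:**
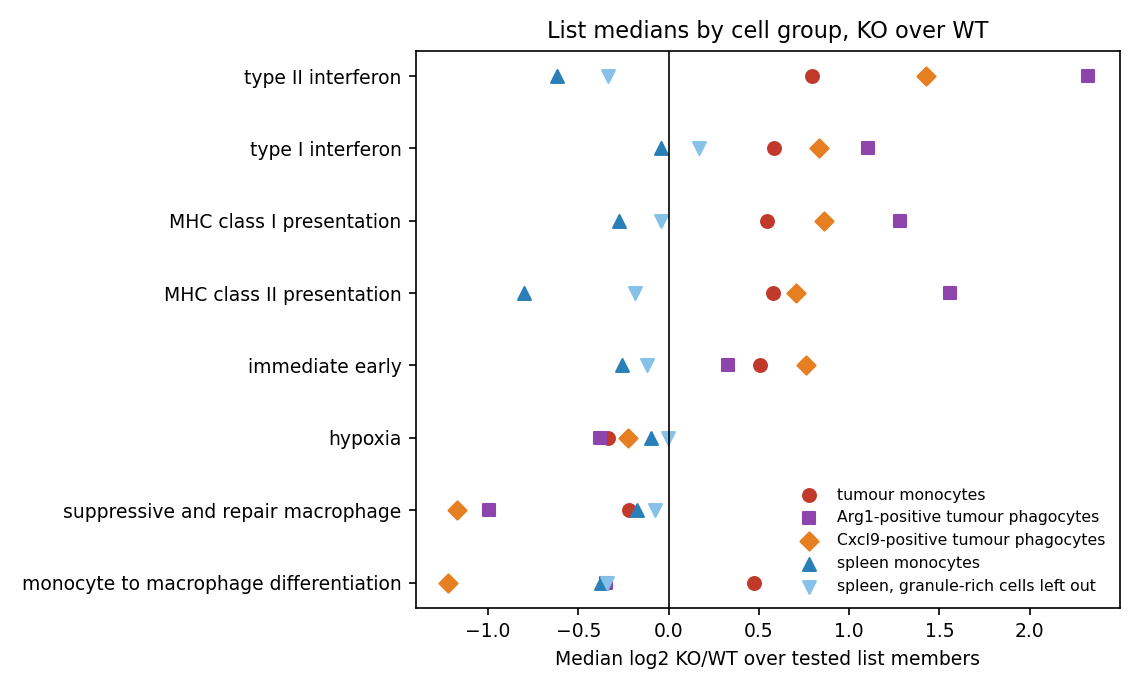
Median log2 KO/WT ratio (x axis) of 8 gene lists (y axis) in 5 groups of cells (symbols). Type II interferon medians are 2.32 in Arg1-positive, 1.42 in Cxcl9-positive tumour phagocytes and 0.79 in tumour monocytes, and -0.62 in spleen monocytes.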

How the data were processed

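The deposited values are raw UMI counts per gene and cell barcode, not normalized, from CD45-sorted B16-F10 tumours and CD45 and CD11b sorted spleens, in 1 pooled library for each genotype and organ. Per the labels' protocols, each 10x Chromium v3.1 lane received 16000 cells. Per the file headers, Cell Ranger 6.0.0 wrote the matrices. The submitters' processing notes instead give Cell Ranger 3.1, Seurat 3.1.4 and 3.1, and the builds mm10 and GRCm38. The tumour libraries held 6122 KO and 4798 WT barcodes with 63560706 KO and 47754169 WT UMIs, of which 4656 KO and 4019 WT cells were kept, with median depths of 10534 UMIs in KO and 7502 UMIs in WT.

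UMIs were summed over the members of each library and scaled to CPM. The log2 KO/WT ratio has an exact conditional binomial 95% interval, levels have Poisson intervals, shares Clopper-Pearson intervals and differences of shares Newcombe intervals, all for counting error only. A gene at 0 was given a floor of 3 counts over the group. Genes with a mean of at least 20 CPM were compared, and the fold used was 1.5. The genes of the member rule and Ndufa4 were left out of these counts. The ratio step was tested on simulated counts. Doublets were scored per library after the method of Scrublet (top 0.8% per 1000 barcodes) and left in, since the member rule does not remove them. With 1 library per genotype no test was made and no p-value computed.

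Genes named in the text are the 12 highest and 12 lowest by the interval bound nearest to 0 among genes with a mean of at least 50 CPM, up to 4 members of each of 28 lists, the markers, and a set of monocyte genes named whatever their values. Other list members are named where the text gives the whole of a small count, and these and Gbp5 were chosen after their values were seen. A few genes that this choice names are not reported here. The members, the gene lists and the lists of other cell types were chosen with earlier results of these data known. Work was done in Python 3.11.15 with numpy 2.4.6, scipy 1.17.1 and pandas 2.3.3, and promoter windows came from RefSeq on GRCm38.p6, not from the deposited files.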

Additional observations from a re-analysis of the deposited data

Results flagged for a closer look

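Of the named genes, 3 were past 1.5-fold in opposite directions in spleen and tumour monocytes, with intervals off 0 in both and with or without the granule-rich KO spleen cells. The difference between organs was not tested. Ccl3, a chemokine, had a log2 KO/WT ratio of 2.15 in tumour monocytes, and 0 UMIs in KO against 8 UMIs in 3 WT spleen monocytes. At 23.3 CPM in WT, its spleen mean is below the 20 CPM asked of compared genes. Its spleen ratio against the floor of 3 counts is -1.55 with all cells and -1.23 without the 5 granule-rich KO cells, as upper bounds. Cd74, the class II invariant chain, had 0.59 in the tumour, and -1.06 in the spleen with all cells or -0.77 without the granule-rich cells. With all spleen cells it had 49 UMIs in KO and 93 UMIs in WT, 35 of the latter in 1 cell. Fabp5, a fatty acid carrier, had -1.18 in the tumour, and 1.45 in the spleen with all cells or 1.77 without the granule-rich cells, where it rested on 18 UMIs in KO and 6 UMIs in WT. Klf4 came near this, with 1.49 in the tumour, and -0.81 [-1.31, -0.33] in the spleen with all cells or -0.49 without the granule-rich cells, where it is not past the fold. Plac8, Irf8 and Cx3cr1 also had spleen ratios below 0 with all cells (-0.38, -0.50 and -0.65), whose intervals span 0 without the granule-rich cells.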

How the results depend on the processing

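No paired analysis was possible because each genotype and organ has 1 pooled library. The type I median ranged between 0.34 and 0.83 and the type II median between 0.62 and 1.34 over all settings, both higher in KO throughout. The hypoxia median was -0.45 to 0.01, with the last value from thinned members. The share of all tumour cells, whose interval spans 0, also turned with Cd3 allowed (0.045 points) and with at least 5 Ly6c2 UMIs (0.072 points). The other differing values follow, and their cause was not tested. Lifting the Arg1 and Cxcl9 conditions (122 KO and 95 WT cells) gave share differences of 0.257 points of all tumour cells and 22.8 points of phagocytes, 441 higher and 391 lower genes, and medians of 1.19 for type II interferon and -1.02 for suppressive genes. Applying the rule to cells thinned to 2000 UMIs (121 KO and 64 WT cells) gave 0.934 and 13.1 points, 422 higher and 344 lower genes, and medians of 1.34 and -0.66. In that setting any UMI of Lyz2 and of Ly6c2 was enough, and the excluded genes were judged on the thinned counts. Allowing Csf3r gave 414 higher and 347 lower genes, thinning the members 1487 higher and 1177 lower, and leaving out cells with T or NK marker UMIs 1228 higher. A 2-fold limit gave 218 higher and 196 lower genes, a minimum of 50 CPM 281 and 209, and no minimum 2045 and 1705.

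Of 78 named genes past the fold, 68 kept their direction and 55 the fold with the Arg1 and Cxcl9 conditions lifted, and 78 and 71 without the top cell of each library. Directions turned for 24 values. With both conditions lifted these were Abca1 (-0.40), Ccl12 (-0.56), Ccl3 (-1.88), Ccl4 (-0.21), Cd72 (-0.066), Cx3cr1 (-0.81), Ifit1 (0.042), Iigp1 (1.36), Ms4a7 (-0.26) and Pfkp (0.26). With the rule on thinned cells they were Cx3cr1 (-0.30), Ifit1 (0.87), Ifit2 (1.23), Iigp1 (1.04), Mki67 (-2.84), Ms4a7 (-0.48), Pfkp (0.31) and Ptgs2 (0.15). With Csf3r allowed they were Iigp1 (0.44) and Ms4a7 (-0.20), with members thinned Slamf7 (-0.41) and Slc2a1 (0.34), and without T or NK marker UMIs Cd14 (0.44) and Srxn1 (-0.19). The Csf3r, Cd3 and top-cell settings were chosen after seeing the data. Sums over 39 and 43 cells limit genes below about 20 CPM, and intervals cover neither the spread between mice nor that between cells.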
